A study of Mus musculus with 8 samples.

Results

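The IL-1 family receptor cluster is a stretch of mouse chromosome 1 that holds Il1r2, Il1r1, Il1rl2, Il1rl1, Il18r1 and Il18rap. Its members here are the accessible sites of the deposited table whose midpoint lies in chr1:40120000-40640000 (mm9). These were 34 of the 79758 sites in all. All 34 passed the filter on low counts that left 75352 sites for testing. The assay was ATAC-seq, which uses a transposase to cut accessible DNA and add sequencing adapters to it. The material was regulatory T (Treg) cells sorted from spleen and lymph nodes of mixed bone marrow chimeras, mice whose blood cells come from a mixture of donor marrows. The 8 libraries form 4 groups of 2: Pggt1b-deficient eTreg, WT eTreg, Pggt1b-deficient cTreg and WT cTreg cells. In the field's usage eTreg are effector and cTreg central Treg cells. Pggt1b codes for the catalytic subunit of GGTase-I, a prenyltransferase that attaches a lipid to proteins such as small GTPases. The way Pggt1b was deleted, any Cre driver, the sorting markers, the age of the mice, and whether WT and Pggt1b-deficient cells came from the same hosts are not stated in the labels. Separate mice are not named for the pair of libraries in a group, so p-values rest on a spread between libraries that may be only technical.

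The genes of the cluster encode receptors of a cytokine family whose members bind their ligand through immunoglobulin domains and signal through a shared type of intracellular domain. Il1r1 encodes the signalling receptor for IL-1. Il1r2 encodes a decoy receptor that binds IL-1 without signalling. Il1rl2 encodes the receptor for IL-36 cytokines, and Il1rl1 encodes ST2, the receptor for the alarmin IL-33. Il18r1 and Il18rap encode the ligand-binding and accessory chains of the IL-18 receptor. ST2 is well known on Treg cells of tissues and on some effector Treg cells, and the decoy IL1R2 is known on activated Treg cells. In the RefSeq annotation of GRCm38.p6 the genes follow each other in the order given above along rising coordinates. Because that build differs from the mm9 build of the sites, no site was assigned to a gene or promoter. Sites are therefore given by position and by number, from site 1 at the Il1r2 end to site 34 at the Il18rap end. For the same reason the Treg marker genes, the Pggt1b locus and other IL-1 pathway genes were not analysed here, so neither the cell type nor the genotype labels were checked.

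The promoter of Il1r2 is shown because the Il1r2 end held 4 of the 9 sites called in any comparison, and those of Il1rl1 because ST2 is the receptor of the cluster best known in effector Treg cells. Each is the 250 bases before a RefSeq start on the plus strand of GRCm38.p6, and these coordinates must not be compared with the mm9 positions of sites. The promoter of Il1r2 lies at chr1:40085843-40086092, and those of Il1rl1 at chr1:40429320-40429569 and chr1:40439379-40439628. Capitals mark matches, on either strand, to 6 short motifs. The AP-1 motif was searched as TGANTCA and the Rel (NF-kB family) motif as GGAANTTCC. For factors of the GATA family the letters were AGATAA. For the RUNX family they were TGTGGT, while CACGTG stood for the E-box. The forkhead (FOX) motif was searched as TGTTTAC.
Il1r2: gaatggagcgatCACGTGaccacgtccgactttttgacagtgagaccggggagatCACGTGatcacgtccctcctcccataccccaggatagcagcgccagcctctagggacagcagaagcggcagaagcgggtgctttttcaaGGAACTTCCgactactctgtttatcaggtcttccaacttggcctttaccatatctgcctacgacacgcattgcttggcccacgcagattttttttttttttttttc
Il1rl1, upstream start: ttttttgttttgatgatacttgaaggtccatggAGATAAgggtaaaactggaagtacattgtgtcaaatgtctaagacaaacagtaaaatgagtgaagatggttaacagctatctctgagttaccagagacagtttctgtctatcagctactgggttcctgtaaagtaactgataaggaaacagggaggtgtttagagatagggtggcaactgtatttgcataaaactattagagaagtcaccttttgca
Il1rl1, downstream start: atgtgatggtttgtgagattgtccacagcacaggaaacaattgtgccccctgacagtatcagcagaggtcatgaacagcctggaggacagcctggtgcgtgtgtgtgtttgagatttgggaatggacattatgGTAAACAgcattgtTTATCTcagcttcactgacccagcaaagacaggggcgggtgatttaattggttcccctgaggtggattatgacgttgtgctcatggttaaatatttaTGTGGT

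The Il1r2 promoter held 2 E-box matches and 1 Rel match. The upstream Il1rl1 promoter held 1 GATA match, and the downstream one held 1 GATA, 1 RUNX and 1 FOX match. Of 32851 promoters in the RefSeq table, 6.02% held the E-box, 0.813% the Rel, 9.99% the GATA, 14.0% the RUNX and 3.17% the FOX letters. The Rel letters were not particular to Il1r2: the promoters of Il1rl2 and Il18rap, not shown here, held 1 Rel match each. That of Il1rl2 also held 1 RUNX match. The AP-1 letters, found in 6.75% of all promoters, occurred in none of the 10 promoters listed for the 6 genes. None of the 6 motifs contains another. A match is a string of letters and not a bound site.

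Libraries differed widely in depth, with totals of 2255214 and 1664702 counts in Pggt1b-deficient eTreg libraries and 7153991 to 14974253 in the other 6. The window received 410 and 267 counts in Pggt1b-deficient eTreg libraries and 1118 to 2478 in the other 6. Of the 34 sites, 4 had no count in either Pggt1b-deficient eTreg library, and no site was at 0 in both libraries of any other group. A level of 6 counts equals 2.69 and 3.56 CPM (counts per 1000000 counts, after TMM scaling) in the Pggt1b-deficient eTreg libraries, against 0.407 to 0.828 CPM in the other 6. Weak sites therefore rest on few counts in comparisons that use Pggt1b-deficient eTreg cells. The window's sites were shallower and narrower than the table as a whole, with a median mean count of 17.8 against 36.0 over all tested sites and a median width of 86.5 bp against 112 bp.

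As a whole, and with its edges as set, the window took a similar share of the counts in all groups. Of every 1000000 counts it held 171 ± 15.1 in Pggt1b-deficient eTreg, 167 ± 1.86 in WT eTreg, 159 ± 4.25 in cTreg lacking Pggt1b, and 159 ± 11.9 in WT cTreg libraries (SD, n = 2 each). Groups overlapped in every pairing except WT eTreg, at 168 and 165, and Pggt1b-deficient cTreg, at 162 and 156. The window was not open evenly: of 8 segments of 65 kb, the first held 10 sites, the fifth 9 and the seventh 10, and the longest gap between neighbouring sites was 154.4 kb. In WT cTreg cells the 10 sites of the seventh segment summed to 84.5 ± 7.55 CPM, against 25.2 ± 3.15 CPM for the 10 sites of the first segment.

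**Figure D1:**
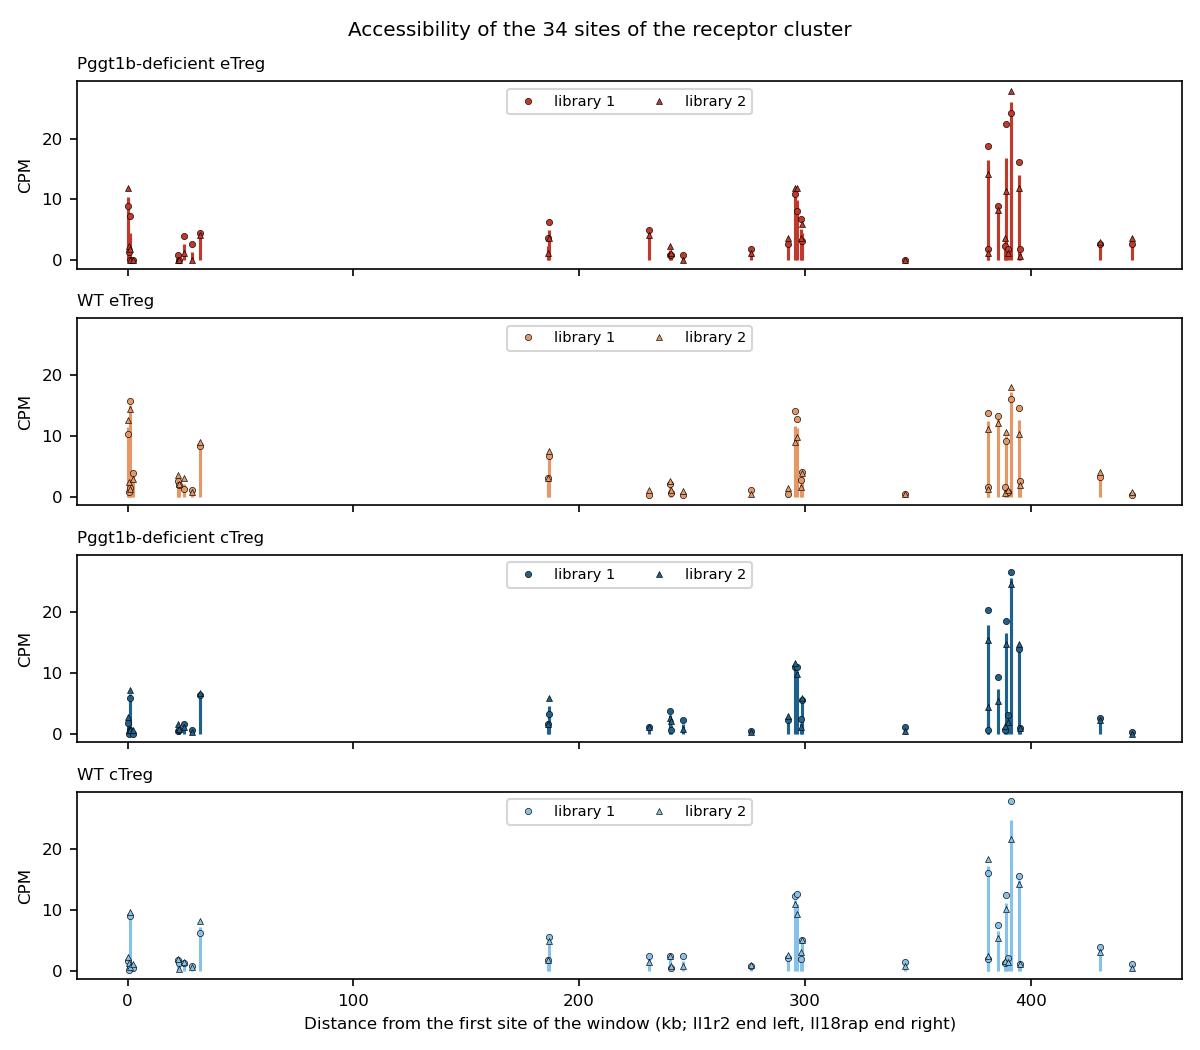
Accessibility along the receptor cluster in the 4 groups. The x axis is the distance of each site from the first site in kb and the y axis CPM; stems are group means and symbols the 2 libraries. The tallest stems stand near 391 kb in all groups, and site 1, at 0 kb, averages 10.4 and 11.5 CPM in the eTreg groups, against 2.28 and 1.87 CPM in the cTreg groups.

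The most accessible site in the cluster was site 30 (chr1:40532595-40532942), which at 347 bp was also the widest. It had 24.2 and 27.9 CPM in Pggt1b-deficient eTreg, 16.2 and 18.1 CPM in WT eTreg, 26.6 and 24.7 CPM in Pggt1b-deficient cTreg, and 28.0 and 21.6 CPM in WT cTreg libraries. WT eTreg libraries were the lowest, below all 6 others. Site 24 (chr1:40522338-40522527) averaged 16.5 ± 3.26, 12.5 ± 1.89, 17.9 ± 3.5 and 17.2 ± 1.66 CPM in the same order of groups. Site 31 (chr1:40536339-40536531) averaged 14.0 ± 3.04, 12.6 ± 3.08, 14.4 ± 0.529 and 14.9 ± 0.855 CPM, and site 28 (chr1:40530576-40530813) 16.8 ± 7.89, 9.95 ± 1.10, 16.6 ± 2.64 and 11.2 ± 1.66 CPM. These 4 strongest sites lay within 15 kb of each other. The fifth, site 19 (chr1:40437165-40437309), was nearly level, at 11.3 ± 0.770, 11.6 ± 3.53, 11.3 ± 0.425 and 11.6 ± 0.985 CPM (SD, n = 2 for each group), and no comparison called it (edgeR adjusted p = 0.955 to 0.996).

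Over the 34 sites the groups took no fixed order. Pggt1b-deficient eTreg cells had the highest mean at 11 sites and the lowest at 10, WT eTreg cells the highest at 13 and the lowest at 9. Pggt1b-deficient cTreg cells had the highest mean at 6 and the lowest at 11, and WT cTreg cells each extreme at 4. The most frequent order had WT eTreg highest and Pggt1b-deficient eTreg lowest, at 7 sites. Among these were sites 3, 5 and 7, which had no count in Pggt1b-deficient eTreg libraries. The rank of that shallow group therefore rests on few counts at weak sites. Across all comparisons 9 sites were called at least once and 25 never. The called sites had a median width of 112 bp and a median mean count of 52.6, against 75 bp and 17.5 for the others. The 9 sites of the fifth segment, none of them called, summed to 38.7 ± 3.96 CPM in Pggt1b-deficient eTreg, 34.8 ± 5.22 CPM in WT eTreg, 38.1 ± 1.43 CPM in cTreg lacking Pggt1b and 37.8 ± 3.10 CPM in WT cTreg libraries (SD, n = 2 each), within the spread of their libraries.

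The comparison of WT eTreg with WT cTreg cells asks how the subsets differ when Pggt1b is intact. At the Il1r2 end 3 of the 10 sites of the first 65 kb segment were called higher in WT eTreg cells. All 10 had a log2 fold change above 0, with a median of 0.84. At 8 of the 10 both WT eTreg libraries were above both WT cTreg libraries, which was so at 33.7% of all sites tested. In the seventh segment, which holds the strongest sites, 3 of 10 lay above 0. Over the window, 4 of 34 sites were called higher and 2 lower in WT eTreg cells at an adjusted p under 0.05 (edgeR quasi-likelihood test). Over all sites tested 13.8% were called higher and 14.9% lower. The window's share of calls was thus 17.6%, against 28.7% for the table. Among sites with a mean count of at least 20, where depth is nearer to even, 5 of 15 window sites were called, against 32.9% of 50949 in the table. The window's median log2 fold change was 0.04, against 0.00 for all tested sites.

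Site 1 (chr1:40141475-40141658) had 10.4 and 12.6 CPM in WT eTreg libraries, against 1.53 and 2.22 CPM in WT cTreg libraries. The groups were far apart and the rise was 6.12-fold, a log2 fold change of 2.61 ± 0.31 (SE; edgeR Benjamini-Hochberg (BH) adjusted p = 1.24e-08). Site 5 (chr1:40143934-40144046), 2.5 kb further on, had 3.89 and 2.99 CPM in WT eTreg libraries, against 0.403 and 1.11 CPM in WT cTreg libraries. It rose by 2.15 ± 0.58 on the log2 scale (SE; edgeR BH-adjusted p = 0.00424). The call was lost without WT cTreg replicate 1 (1.60, adjusted p = 0.127), without WT eTreg replicate 1 (adjusted p = 0.0843) and with DESeq2 (adjusted p = 0.0803), and without WT cTreg replicate 2 the log2 fold change was 3.04. Between them, site 4 (chr1:40142772-40142884) had 15.8 and 14.5 CPM in WT eTreg libraries, against 9.02 and 9.66 CPM in WT cTreg libraries. This smaller rise, of 0.70 ± 0.22, was also called (edgeR adjusted p = 0.0155), though not after leaving out any one of the 4 libraries compared.

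In the seventh segment the calls pointed both ways. Site 26 (chr1:40526891-40527051) had 13.3 and 12.2 CPM in WT eTreg libraries, against 7.57 and 5.39 CPM in WT cTreg libraries, a log2 fold change of 0.98 ± 0.24 (SE; edgeR BH-adjusted p = 0.00185). Site 30, the strongest site, fell by 0.53 on the log2 scale (SE 0.15; edgeR adjusted p = 0.00779), and site 24 fell by 0.47 (SE 0.18; edgeR adjusted p = 0.0492). Site 26 thus rose in WT eTreg cells while sites 24 and 30, within 6 kb on either side, fell. The call at site 24 was lost in 9 of 18 alternatives, among them another scaling (edgeR adjusted p = 0.0567 with RLE factors). Site 30 was not called without WT cTreg replicate 1 (log2 fold change -0.34, adjusted p = 0.260), without WT eTreg replicate 1 (adjusted p = 0.0953) or with counts thinned to the smallest library (adjusted p = 0.493), and site 26 was not called without WT cTreg replicate 2 (adjusted p = 0.0931). Of the 6 called sites, sites 1 and 26 remained without WT cTreg replicate 1, sites 1, 5 and 30 without WT cTreg replicate 2, and sites 1 and 26 without WT eTreg replicate 1. Site 1 remained called in all 18 alternatives. Site 7 (chr1:40164066-40164154) had 2.04 and 2.17 CPM in WT eTreg libraries, against 1.29 and 0.317 CPM in WT cTreg libraries, and did not pass (log2 fold change 1.38 ± 0.61 (SE), edgeR BH-adjusted p = 0.0894), though limma voom called it (adjusted p = 0.0146).

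**Figure D2:**
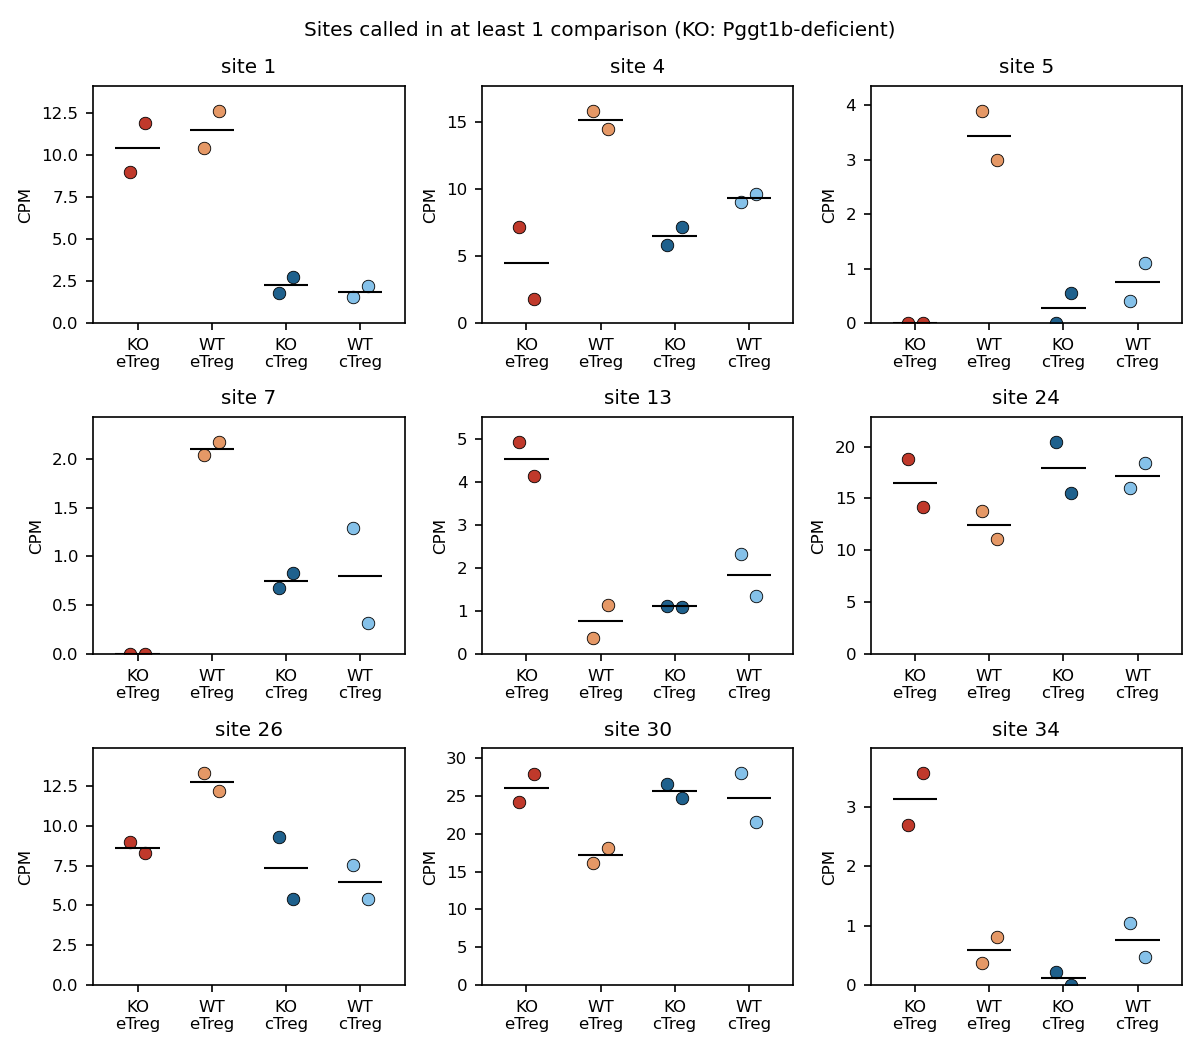
CPM at the 9 sites called in at least 1 comparison, by group; points are the 2 libraries, lines their mean, and each y axis starts at 0. Site 1 is high in both eTreg groups, and sites 4, 5 and 7 are high in WT eTreg libraries and lower in Pggt1b-deficient eTreg libraries.

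The comparison of Pggt1b-deficient with WT eTreg cells asks whether loss of the enzyme alters the effector state. At the Il1r2 end site 1 showed no detectable difference, while sites 4, 5 and 7 were lower in Pggt1b-deficient eTreg cells. Over the window 1 of 34 sites was called higher and 3 lower (edgeR, adjusted p under 0.05), where the shares over all sites were 4.66% and 6.43%. The window's share of calls was 11.8%, against 11.1% for the table. Among sites with a mean count of at least 20, 1 of 15 window sites was called, against 14.4% in the table. With loess offsets in place of TMM the split was 4 higher and 2 lower, so the ratio of higher to lower calls depended on the scaling. The window's median log2 fold change was 0.02, against -0.09 for all tested sites. With the 4 sites without counts at their bound the window's median was 0.13. At some of these sites the bound of 6 counts lies above the WT eTreg level, so they enter as rises. The median over all tested sites was not recomputed with bounds.

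Site 1 had 8.97 and 11.9 CPM in Pggt1b-deficient eTreg libraries, against 10.4 and 12.6 CPM in WT eTreg libraries. The groups overlapped, and the log2 fold change was -0.17 ± 0.33 (SE; edgeR BH-adjusted p = 0.804). Site 4, 1.3 kb away, had 7.18 and 1.78 CPM in Pggt1b-deficient eTreg libraries, against 15.8 and 14.5 CPM in WT eTreg libraries. It fell by 1.65 on the log2 scale (SE 0.37; edgeR adjusted p = 0.00213). Its Pggt1b-deficient libraries, with 16 and 3 counts, differed more from each other than those of any other group, and without replicate 2 of that group the fall was 1.08 on the log2 scale and was no longer called (edgeR adjusted p = 0.0564). Without replicate 1 the fall was 3.09 on the log2 scale.

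Site 5 had no count in either Pggt1b-deficient eTreg library, against 42 and 44 counts in WT eTreg libraries. Its level was at least 2.20-fold lower, taking 6 counts over the group as the floor (edgeR adjusted p = 0.0115). The call was lost without WT eTreg replicate 1 (adjusted p = 0.0553) and without Pggt1b-deficient eTreg replicate 1 (adjusted p = 0.0863). Site 7 likewise had no count in Pggt1b-deficient eTreg libraries, against 22 and 32 counts in WT eTreg libraries, and was at least 1.38-fold lower (edgeR BH-adjusted p = 0.0416). Both sites were weak, and the Pggt1b-deficient libraries were shallow enough that counts of 0 allow a sizeable level. Site 7 was not called with group weights in limma voom (adjusted p = 0.0880) or without any one of the 4 libraries compared. Site 10 (chr1:40173391-40173574), with 4.48 and 4.15 CPM in Pggt1b-deficient eTreg libraries against 8.34 and 8.96 CPM in WT eTreg libraries, did not pass (log2 fold change -1 ± 0.39 (SE), edgeR adjusted p = 0.0974).

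Summed over the 10 sites of the first segment, accessibility was 25.5 ± 5.84 CPM in Pggt1b-deficient eTreg, 50.0 ± 3.25 CPM in WT eTreg, 20.1 ± 2.94 CPM in cTreg lacking Pggt1b and 25.2 ± 3.15 CPM in WT cTreg libraries (SD, n = 2 each). The WT eTreg libraries stood above the other 6, and Pggt1b-deficient eTreg libraries overlapped both cTreg groups. Without site 1 the other 9 sites summed to 15.1 ± 7.88 CPM in Pggt1b-deficient eTreg, 38.5 ± 1.67 CPM in WT eTreg, 17.9 ± 2.26 CPM in cTreg lacking Pggt1b and 23.3 ± 2.66 CPM in WT cTreg libraries. Apart from site 1, then, the Pggt1b-deficient eTreg mean was below both cTreg means, though its libraries, at 20.6 and 9.48 CPM, were far apart. These sums are given as values and were not tested here.

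**Figure D3:**
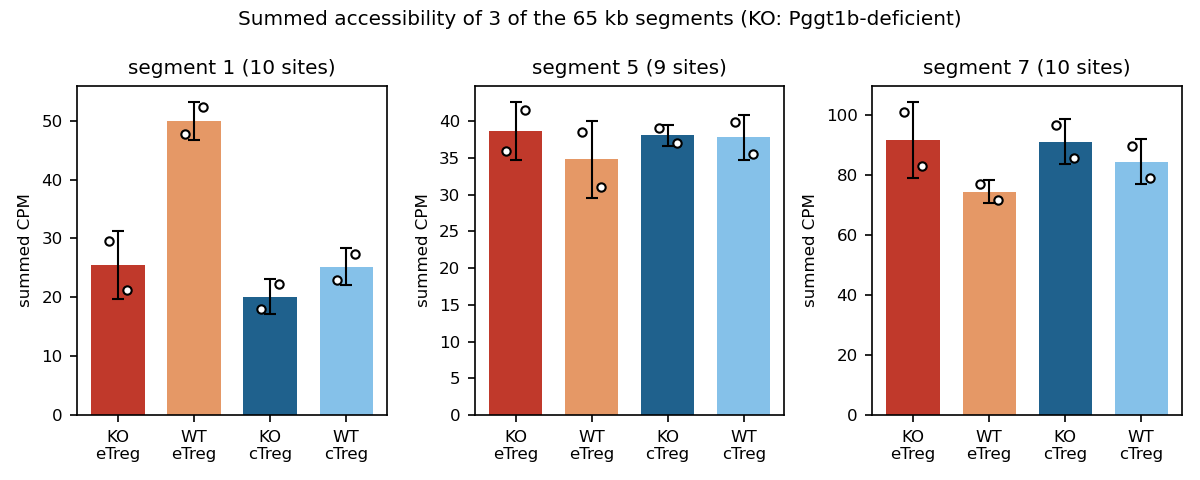
Summed CPM over the 3 site-rich 65 kb segments of the window; bars are means, whiskers SD and points the 2 libraries. In segment 1 the WT eTreg mean of 50.0 CPM is above the other 3 groups, whose means are 20.1 to 25.5 CPM. In segments 5 and 7 WT eTreg has the lowest mean.

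The site called higher in Pggt1b-deficient eTreg cells, site 13 (chr1:40372526-40372549), was 23 bp wide. It had 4.93 and 4.15 CPM in Pggt1b-deficient eTreg libraries, against 0.371 and 1.15 CPM in WT eTreg libraries. The libraries behind the higher level had 11 and 7 counts. The log2 fold change was 2.50 ± 0.67 (SE; edgeR BH-adjusted p = 0.0115), and the call was lost without WT eTreg replicate 1 (adjusted p = 0.103) or Pggt1b-deficient eTreg replicate 1 (adjusted p = 0.0984). Without WT eTreg replicate 2 it was 3.58. The strong sites 30 and 28 did not pass the test, with log2 fold changes of 0.58 ± 0.21 and 0.80 ± 0.28 (SE; edgeR BH-adjusted p = 0.0602 and 0.0534). Both passed with loess offsets, at adjusted p = 0.0353 and 0.0338. Of the 4 called sites, site 4 alone remained without WT eTreg replicate 1 or without Pggt1b-deficient eTreg replicate 1.

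Within Pggt1b-deficient cells, eTreg against cTreg, the rise at site 1 was present. The site had 8.97 and 11.9 CPM in Pggt1b-deficient eTreg libraries, against 1.79 and 2.76 CPM in Pggt1b-deficient cTreg libraries. It rose 4.56-fold, a log2 fold change of 2.19 ± 0.41 (SE; edgeR BH-adjusted p = 0.00043), and remained called in all 17 alternatives, with a log2 fold change of 3.02 when counts were thinned to the smallest library. This comparison shares no library with the one in WT cells, where the log2 fold change was 2.61 ± 0.31. Both, however, took their spread from the same fit of all 8 libraries. With only the Pggt1b-deficient groups in the model the log2 fold change was 2.22 (edgeR adjusted p = 0.0127). The test of the difference between the rises in Pggt1b-deficient and WT cells gave an interaction of -0.42 ± 0.52 (SE; edgeR BH-adjusted p = 0.757). This estimate is too imprecise to show that the rises were equal.

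None of the other 9 sites of the first segment was called in Pggt1b-deficient cells. Site 10 had the largest change of the window among sites with a mean count of at least 20 in the compared libraries. It had 4.48 and 4.15 CPM in Pggt1b-deficient eTreg libraries, against 6.39 and 6.76 CPM in Pggt1b-deficient cTreg libraries, without overlap. Its log2 fold change of -0.60 ± 0.42 did not pass (SE; edgeR BH-adjusted p = 0.408). Site 4 had 7.18 and 1.78 CPM in Pggt1b-deficient eTreg libraries, against 5.83 and 7.18 CPM in Pggt1b-deficient cTreg libraries, a log2 fold change of -0.43 ± 0.42 (SE; edgeR BH-adjusted p = 0.582). Site 2 (chr1:40141977-40142015) had 1.35 and 2.37 CPM in Pggt1b-deficient eTreg libraries, against 0 and 0.552 CPM in Pggt1b-deficient cTreg libraries, without overlap. Its count ratio was 7.22, with a 95% interval of 1.18 to 91.2 on pairs of counts, and it did not pass (edgeR BH-adjusted p = 0.161). Sites 3, 5 and 7 had no count in Pggt1b-deficient eTreg libraries, so their direction against cTreg cells cannot be read at this depth. The interaction, tested site by site, was called at none of the 10 sites. Site 5 had counts of 0 and 0 in Pggt1b-deficient eTreg libraries and 0 and 4 in Pggt1b-deficient cTreg libraries, too few for a fold.

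Over the window 2 of 34 sites were called higher and 0 lower in Pggt1b-deficient eTreg than in Pggt1b-deficient cTreg cells by the same edgeR criterion, where 4.59% and 4.52% of all sites were. No site fell at an unadjusted p under 0.05 either, and limma voom called no fall. DESeq2 gave an adjusted p at 24 of the 34 sites and called no fall among those. By direction alone, 17 sites had a log2 fold change above 0 and 17 below. The 4 sites with no count in Pggt1b-deficient eTreg libraries had an unadjusted p of 0.0676 to 0.278 (edgeR). At this depth a fall at a weak site could hardly be called. The other call was site 34 (chr1:40586137-40586150), 13 bp wide and the last of the cluster. It had 6 and 6 counts in Pggt1b-deficient eTreg libraries, against 2 and 0 counts in Pggt1b-deficient cTreg libraries. The count ratio was 24.8, with a 95% interval of 3.00 to 1140 (Clopper-Pearson, on pairs of counts, for counting error alone; edgeR adjusted p = 0.0108). Without Pggt1b-deficient cTreg replicate 2 it was no longer called (adjusted p = 0.060), which left site 1 alone.

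**Figure D4:**
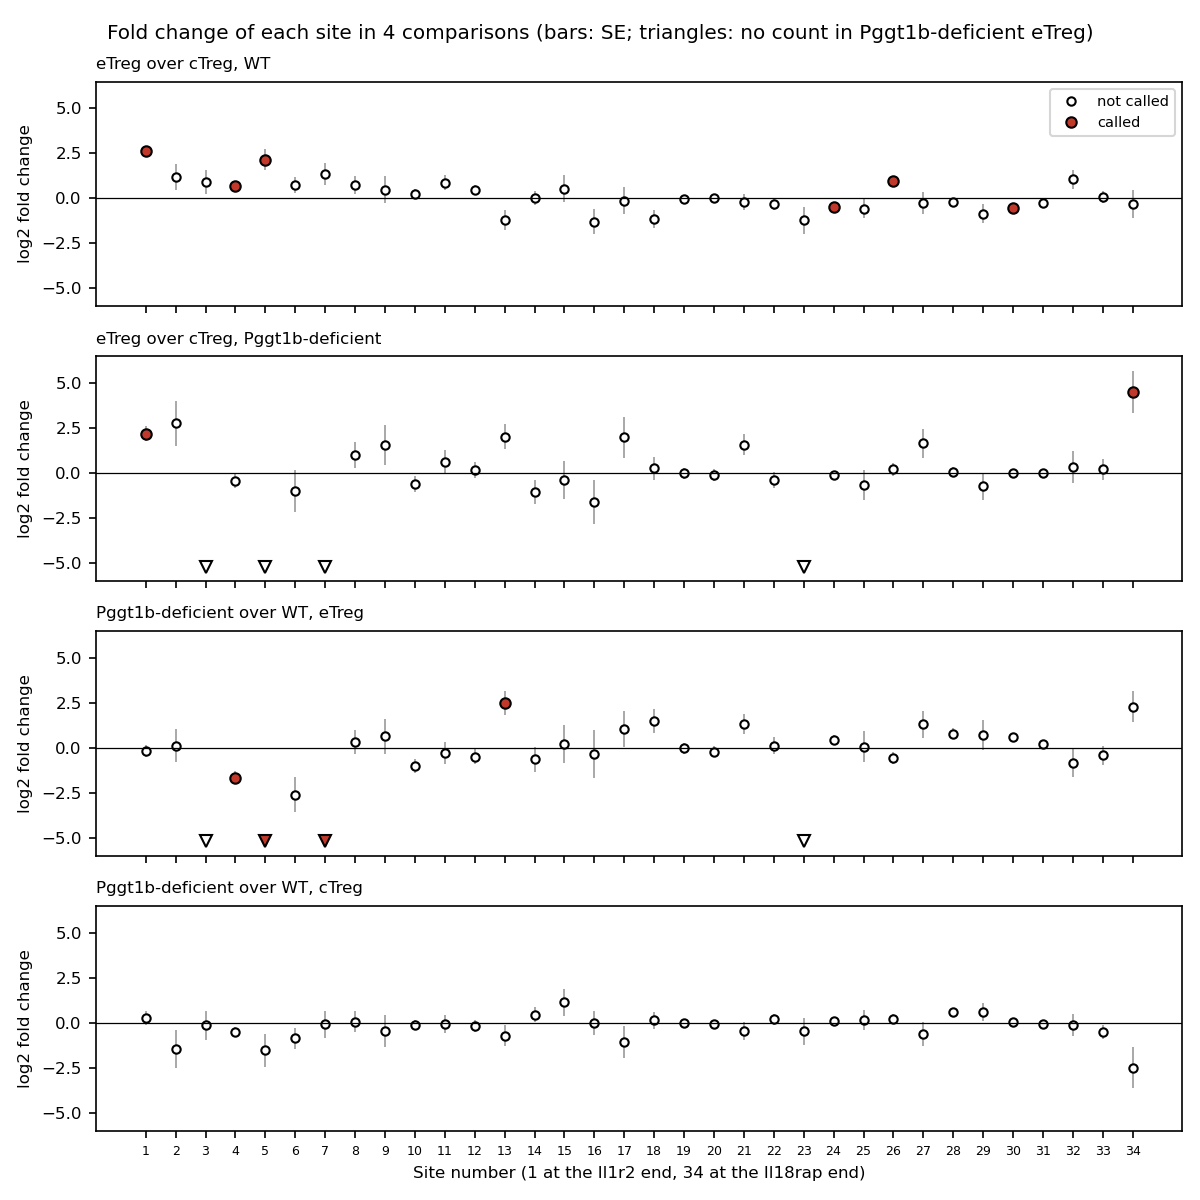
Log2 fold change of each of the 34 sites in 4 comparisons, with sites in order along the chromosome on the x axis and bars of 1 SE. Filled symbols passed an adjusted p under 0.05. Triangles mark the 4 sites with no count in Pggt1b-deficient eTreg libraries and are drawn at a fixed height, not at a measured value. In WT cells the 10 sites on the left all lie above 0.

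In cTreg cells loss of Pggt1b left the cluster without a called site. None of the 34 sites was called higher and none lower by edgeR, where 0.530% and 1.69% of all sites were. At an unadjusted p under 0.05, 1 site was higher and 2 were lower. The limma voom fit called none, and DESeq2 called none of the 11 sites for which it gave an adjusted p. With only the 2 groups compared in the model, site 28 was called higher (log2 fold change 0.60, edgeR adjusted p = 0.0441). It had 18.5 and 14.8 CPM in Pggt1b-deficient cTreg libraries, against 12.4 and 10.1 CPM in WT cTreg libraries, without overlap. In the model of all libraries its log2 fold change was 0.57 ± 0.21 (SE; edgeR BH-adjusted p = 0.173). Among sites with a mean count of 20 or more in the compared libraries, the largest change was at site 29 (chr1:40531331-40531382), with a log2 fold change of 0.61 ± 0.50 (SE; edgeR BH-adjusted p = 0.664).

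None of the 10 sites of the first segment was called in cTreg cells. Of these, 8 had a log2 fold change below 0 and 2 above, with a median of -0.30, against -0.03 for all tested sites. Site 1 had 1.79 and 2.76 CPM in Pggt1b-deficient cTreg libraries, against 1.53 and 2.22 CPM in WT cTreg libraries. The groups overlapped, and the log2 fold change was 0.25 ± 0.40 (SE; edgeR BH-adjusted p = 0.853). Site 4 had 5.83 and 7.18 CPM in Pggt1b-deficient cTreg libraries, against 9.02 and 9.66 CPM in WT cTreg libraries. These did not overlap, but the log2 fold change of -0.53 ± 0.26 did not pass (SE; edgeR BH-adjusted p = 0.349).

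An interaction term tested whether losing Pggt1b acts differently in the 2 subsets. It was called at 0 of 34 sites in either direction by edgeR, where 0.957% of all sites were called higher and 0.555% lower. At an unadjusted p under 0.05, 4 sites were higher and 3 lower. DESeq2 called none of the 11 sites for which it gave an adjusted p. Over all 34, limma voom with group weights called 1, site 13 (log2 difference 3.29, adjusted p = 0.0418). In edgeR the same site had 3.21 ± 0.89 (SE; adjusted p = 0.0531). Site 4, which fell in eTreg cells that lacked Pggt1b, had an interaction of -1.12 ± 0.47 (SE; edgeR BH-adjusted p = 0.230). Without Pggt1b-deficient eTreg replicate 1 it was -2.56 and called (adjusted p = 0.0453). Site 21 (chr1:40439647-40439700), with the largest interaction among sites with a mean count of at least 20, had 1.77 ± 0.73 (SE; edgeR BH-adjusted p = 0.227).

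The ends of the window were set by position. The first site inside was site 1, and the last site before the window, chr1:40116021-40116301, lay 3.8 kb below its edge. That outside site had 5.38 and 7.11 CPM in Pggt1b-deficient eTreg, 31.3 and 25.2 CPM in WT eTreg, 10.2 and 9.11 CPM in cTreg lacking Pggt1b and 10.8 and 8.71 CPM in WT cTreg libraries. Its WT eTreg libraries were the highest of the 8 and its Pggt1b-deficient eTreg libraries the lowest. At sites 4, 5 and 7 the WT eTreg libraries were likewise the highest. At the other end site 34 was the last inside, and the next site, chr1:40738033-40738216, lay 98.1 kb above the edge with 1.68 to 3.24 CPM in the 8 libraries.

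The 520 kb on either side show where the cluster stands. The lower flank held 57 sites, of which 54 were tested, and the upper flank 6. In WT eTreg against WT cTreg cells 10 of the 54 tested sites of the lower flank were called higher and 11 lower. In the cluster these were 4 and 2 of 34, and over all sites tested 13.8% and 14.9%. In Pggt1b-deficient against WT eTreg cells 1 of the 54 was called higher and 7 lower. In the cluster these were 1 and 3 of 34, and over all sites tested 4.66% and 6.43%. Of the 6 sites of the upper flank, 1 was called higher in the WT comparison and 1 lower in Pggt1b-deficient eTreg cells. Of every 1000000 counts the lower flank took 356 ± 15.3 in Pggt1b-deficient eTreg, 397 ± 20.1 in WT eTreg, 441 ± 1.97 in cTreg lacking Pggt1b, and 409 ± 11.4 in WT cTreg libraries (SD, n = 2 each), above the cluster in every group.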

How the data were processed

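Accessibility was measured by ATAC-seq in 8 libraries. The authors deposited whole-number raw counts per interval in 1 table of 79758 sites. The submitters' processing notes name the build mm9 and list MACS2 2.1.1, bedtools, SAMtools, Picard 2.9.4 and Trimmomatic 0.36. They give no aligner, shift of read ends, peak threshold, pooling of libraries for peaks or unit of counting (reads or fragments). Positions are printed as deposited, and starts could be 0-based.

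Groups and replicate numbers come from the sample titles. Tests on the counts used edgeR 4.0.16 in R 4.3.3 (filterByExpr, TMM scaling, 1 mean per group over all 8 libraries, two-sided quasi-likelihood tests, Benjamini-Hochberg adjustment over the 75352 sites tested), with limma 3.58.1 and DESeq2 1.42.0 as alternatives. The SE of a log2 fold change is its size over the square root of F. The procedure was tested on simulated counts with known fold changes, drawn without the pairing of counts described next. Even numbers made up 66.1% to 77.4% of the counts from 1 to 10, depending on the library, so counts may come in pairs. A group without counts was therefore set at a floor of 6 counts, or 3 pairs, and intervals take a pair of counts as 1 observation. Both cover counting error alone. Between the 2 libraries of a group the chi-square per degree of freedom was 2.06 to 2.29, with each count taken as 1 observation. Counts that come in pairs raise this value, so it cannot show a difference beyond sampling noise. The 2 libraries were counted separately.

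Sites named by rule are those called in any comparison, the 5 with the highest mean CPM, and, per comparison, the one with the largest change among sites with a mean count of at least 20. Site 2 was added after its values were seen. Site 3 is named only because it had no count in Pggt1b-deficient eTreg libraries. The 2 sites named beyond the window's ends were taken as the nearest on either side. The window, segments, motifs and rules were chosen with earlier results of these data known. Promoter sequences are from RefSeq (GRCm38.p6), where all 6 genes matched.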

Additional observations from a re-analysis of the deposited data

How the results depend on the processing

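Site 1 kept its direction and its call in all 18 alternatives for WT cells and all 17 for Pggt1b-deficient cells. Of 200 single-site results under alternatives, 166 stayed past the threshold, 34 did not and 0 reversed. An adjusted p that DESeq2 left undefined was not counted, which left 34, 24, 24, 11 and 11 of the 34 sites for the WT subsets, eTreg genotypes, Pggt1b-deficient subsets, cTreg genotypes and interaction. A setting whose filter on low counts removed the site was not counted as a loss either. Thinning left 12 of the 34 sites, and taking every 2 counts as 1 left 25. With only the compared groups, 18 were left between the Pggt1b-deficient subsets. The 200 results also include fits that left out a library of a group not compared. The number of sites called in the window for WT eTreg against WT cTreg was 2 with counts thinned to the smallest library, 3 with DESeq2, and 2 to 8 when 1 library was left out. For Pggt1b-deficient against WT eTreg it was 1 after thinning, 2 with DESeq2 and 1 to 4 leaving out 1 library. Between the Pggt1b-deficient subsets it was 1 with only the compared groups in the model, 1 after thinning, 1 with DESeq2 and 1 to 3 leaving out 1 library. For Pggt1b-deficient against WT cTreg it was 1 with only the compared groups. The interaction had 1 call with loess offsets, 1 with every 2 counts as 1, 1 with limma voom, and 0 to 1 leaving out 1 library. Thinning and leaving out a library reduce the counts or samples by construction; for the other settings the cause was not tested.

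Deviations of same-numbered libraries were nearly uncorrelated (correlations of -0.0164 to 0.057 across sites), and the numbers were not taken as pairs. Counting noise at weak sites lowers such correlations, so the check cannot exclude pairs. With a replicate block the window's calls were 6, 4, 2, 0 and 0 in the order WT subsets, eTreg genotypes, Pggt1b-deficient subsets, cTreg genotypes and interaction, as without it. With the window widened by 50 kb on each side, it held 194 of every 1000000 counts in Pggt1b-deficient eTreg, 235 in WT eTreg, 181 in cTreg lacking Pggt1b, and 185 in WT cTreg libraries. A wider window adds sites by construction, the one just below it among them. Its WT eTreg mean stood above those of the other groups, so the similar share of the groups holds only for the edges as set. Depth limits the comparisons with Pggt1b-deficient eTreg cells most.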

Other observations

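Narrow and wide sites of the cluster had different fold changes for Pggt1b-deficient against WT eTreg cells, a split made after the values were seen. Of 12 sites up to 60 bp wide, 10 had a log2 fold change above 0, with a median of 0.68, whereas of 22 wider sites 7 did, with a median of -0.32 (0.88 and -0.25 with the 4 sites without counts at their bound). Over all tested sites the medians were -0.10 for 18776 narrow and -0.08 for 56576 wider sites, so the table as a whole did not show this split. Between Pggt1b-deficient eTreg and cTreg cells the medians in the cluster were 1.58 for narrow and -0.10 for wide sites (1.58 and 0.00 with those sites at their bound). Sites 13 and 34, the weakly covered sites called higher in Pggt1b-deficient eTreg libraries, are both narrow. The parts played by width and low counts were not tested.

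Of 2343 tiles of 520 kb with at least 10 tested sites, the 3 whose summed log2 CPM over the 8 libraries correlated best with that of the cluster were chr4:107640001-108160000 (Pearson r = 0.925), chr4:122200001-122720000 (r = 0.918) and chr12:35880001-36400000 (r = 0.918), on mm9. The cluster's own sum spanned only 7.24 to 7.52 on the log2 scale, and the libraries share depth and group, so this is a description.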
